A study of Rattus norvegicus with 12 samples.

Results

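MiR-143, miR-145, miR-126-3p and miR-126-5p, called the 4 vascular miRs here, are among the 154 miRs of the deposited Ct table. They were chosen by the name of their assay (mmu-miR-143, mmu-miR-145, mmu-miR-126-3p and mmu-miR-126-5p), each name matching 1 assay. The arrays were run on single dorsal root ganglia (DRG, which hold the cell bodies of sensory neurons) of adult male Sprague-Dawley rats at Day 23 after surgery, with 4 arrays per group, taken from 2 L3-DRG and 2 L4-DRG. In Sural-SNI, a spared nerve injury, the common peroneal and tibial branches of the sciatic nerve were tied and cut and the sural branch was left intact. In Tibial-SNI the common peroneal and sural branches were cut and the tibial branch was left intact, and in Sham the nerve was exposed with no branch cut. All rats were perfused with cold artificial cerebrospinal fluid before the DRG were taken, which the study did partly to lower the share of blood-derived miRs, and the roots were removed. The sources used here do not tie an array to a rat, so L3-DRG and L4-DRG of 1 group and replicate number may share a rat, and the p-values measure only the spread between these arrays. MiR-143 and miR-145 are also among the miRs that the study picked from these arrays as differing between the SNI groups, so their difference between those groups is not independent evidence.

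MiR-143 and miR-145 are made from 1 primary transcript and are the best known miRs of the smooth muscle cells in the walls of vessels, where they sustain the contractile state and repress, among others, the transcription factors Elk1 (miR-143) and Klf4 (miR-145). MiR-126-3p and miR-126-5p are the arms of 1 hairpin in an intron of Egfl7, a gene of endothelial cells that line vessels. MiR-126-3p represses Spred1, a brake on signals from vascular endothelial growth factor, and miR-126-5p represses Dlk1, an inhibitor of endothelial growth. The DRG has a dense net of vessels that is more leaky than that of the spinal cord, so a whole ganglion holds RNA of vessel walls beside that of neurons and glia. In such bulk RNA, fewer cells of a type and less miR per cell cannot be told apart.

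The mature rat sequences of the miRs that the 4 assay names stand for are shown. The seed (bases 2 to 8 from the 5′ end), by which a miR finds its targets, is in capitals.
miR-143: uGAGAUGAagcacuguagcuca
miR-145: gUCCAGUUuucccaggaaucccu
miR-126-3p: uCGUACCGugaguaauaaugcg
miR-126-5p: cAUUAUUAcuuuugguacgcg
These come from RefSeq (build GRCr8), in which all 4 miRs were matched by name, as rno-miR-143-3p, rno-miR-145-5p, rno-miR-126a-3p and rno-miR-126a-5p. The assays are named for mouse miRs and were matched by name only, so the bases that each assay reads were not checked. The 4 seeds differ from each other, and each occurred in only 1 of the 724 mature sequences of that table. The sequence of miR-143 lies at chr18:57371373-57371394 and that of miR-145 at chr18:57370033-57370055, both on the minus strand and within the bounds of the lncRNA gene Carmn (chr18:57368191-57389112), with 1278 bases between their hairpins. The arms of miR-126 lie 16 bases apart on the plus strand, miR-126-5p at chr3:29813182-29813202 and miR-126-3p at chr3:29813219-29813240, within the bounds of Egfl7 (chr3:29802481-29814966). RefSeq lists this hairpin under the symbol Mir126b, and a miR of the opposite strand, rno-miR-126b, overlaps miR-126-5p by 17 bases.

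A Ct is the PCR cycle at which an assay crosses its threshold, so a lower Ct means more template, and 1 cycle is 1 unit on the log2 scale. All 4 miRs were read well inside the 40 cycles. MiR-126-3p had a mean Ct of 22.04 over the 12 arrays, the second lowest of the 154 miRs, miR-145 a mean of 26.1, miR-143 of 28.4 and miR-126-5p of 28.5. Each assay has its own efficiency, so these Ct values rank the assays and not the copies of the miRs. MiR-182 and miR-183, which mark sensory neurons, had Ct values of 22.3 to 25.1 and 26.5 to 29.2, so both were read on every array, and no other tissue was set beside them.

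The arrays of replicate 1 and replicate 2 stood apart. The mean Ct of all miRs was 28.9 to 30.5 on the 6 arrays of replicate 1 and 27.2 to 28.4 on the 6 of replicate 2, while the reference assay MammU6 went the other way (16.7 to 18.3 and 18.3 to 18.7). The labels do not say what the number stands for. In addition, the L4-DRG Tibial-SNI array of replicate 1 had the highest level of skeletal muscle miRs, as given below. Both splits are set beside the values of the vascular miRs that they touch.

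The first measure was −ΔCt, the mean Ct of the reference assays MammU6, snoRNA135 and U87 minus the Ct of the miR, on a log2 scale on which a higher value means more miR. For miR-143 the Sham arrays gave −3.56 and −3.39 in L3-DRG and −4.02 and −3.13 in L4-DRG (replicates 1 and 2), the Sural-SNI arrays −4.31, −3.64, −4.27 and −2.55 in the same order, and the Tibial-SNI arrays −2.39, −2.22, −3.06 and −2.82. All 4 Tibial-SNI arrays thus lay above all 4 Sham arrays, while the Sural-SNI arrays spread over a wider range than either and overlapped with both. The means were −3.52 ± 0.37 in Sham, −3.69 ± 0.82 in Sural-SNI and −2.62 ± 0.39 in Tibial-SNI (SD, n = 4).

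For miR-145 the same order gave −2.01, 0.06, −2.40 and −0.04 in Sham, −2.40, −0.44, −2.63 and 0.32 in Sural-SNI, and −0.99, 0.74, −1.35 and −0.09 in Tibial-SNI. Here the replicate number parted the arrays more than the group did: every replicate 1 array was below every replicate 2 array. Within replicate 1, both Tibial-SNI arrays were above the other 4, and within replicate 2 the Tibial-SNI arrays ranked 1 and 5 of 6. The group means were −1.10 ± 1.29, −1.29 ± 1.45 and −0.42 ± 0.94 (SD, n = 4).

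MiR-126-3p, the most readily detected of the 4, varied least. Its −ΔCt was 3.34, 3.07, 3.28 and 2.74 in Sham, 3.27, 2.55, 3.07 and 2.84 in Sural-SNI, and 3.73, 3.02, 3.77 and 2.90 in Tibial-SNI. The highest values were those of the Tibial-SNI arrays of replicate 1, and the 3 groups overlapped. The means were 3.11 ± 0.27, 2.93 ± 0.31 and 3.35 ± 0.46 (SD, n = 4).

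MiR-126-5p, from the other arm, had −ΔCt of −6.31, −1.35, −5.13 and −1.30 in Sham, −5.65, −1.45, −5.39 and −1.12 in Sural-SNI, and −4.86, −0.90, −5.05 and −1.28 in Tibial-SNI. All arrays of replicate 1 lay about 4 units below those of replicate 2, whatever the group (mean −5.40 ± 0.52 and −1.23 ± 0.20, SD, n = 6). The number accounted for 97.1% of the sum of squares of miR-126-5p over the 12 arrays, against 81.1% for miR-145, 61.9% for miR-126-3p, 22.3% for miR-143 and a median of 52.1% over all miRs. The group accounted for 48.1% in miR-143, 23.9% in miR-126-3p, 10.6% in miR-145 and 1.01% in miR-126-5p, with a median of 6.64% over all miRs.

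**Figure D1:**
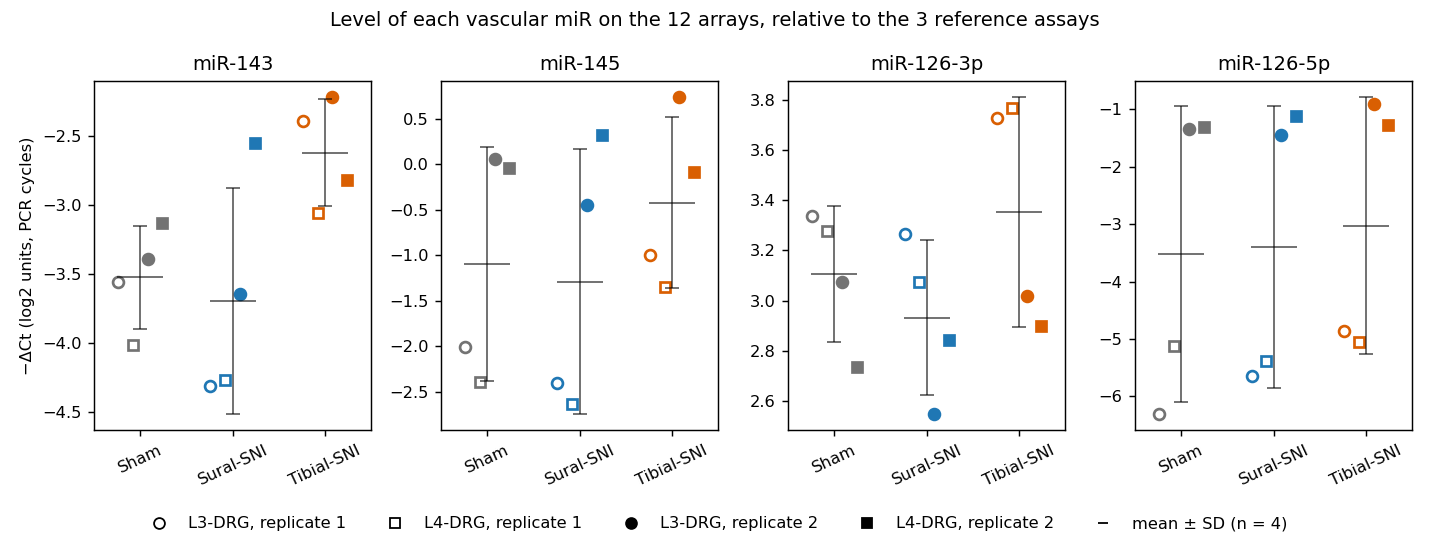
Level of each miR (−ΔCt, log2 units) on each of the 12 arrays, by group, with open symbols for replicate 1, filled for replicate 2, circles for L3-DRG, squares for L4-DRG and bars for mean ± SD (n = 4). All 4 Tibial-SNI arrays of miR-143 lie above the 4 Sham arrays, and in miR-126-5p the replicate number sets the level.

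Tibial-SNI was then compared with Sural-SNI on log2(fold change), which is −ΔCt of an SNI array minus that of the Sham array of the same DRG and replicate number, and which takes out a shift of the number that the Sham and SNI arrays have in common. The study made this comparison because the pain state differs between the SNI variants. MiR-143 had the largest difference of the 4. Its log2(fold change) was −0.75 and −0.25 in L3-DRG and −0.25 and 0.58 in L4-DRG of Sural-SNI (replicates 1 and 2), and 1.17, 1.18, 0.96 and 0.31 in Tibial-SNI. Tibial-SNI was above 0 on 4 of 4 arrays and Sural-SNI below 0 on 3 of 4, and the L4-DRG pair of replicate 2 went the other way, which made the groups overlap. Tibial-SNI exceeded Sural-SNI by 1.07 (SE 0.36, 95% interval 0.25 to 1.90), a 2.11-fold higher level.

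MiR-145 differed in the same direction as miR-143 in each of the 4 pairs of arrays. Its log2(fold change) was −0.39, −0.50, −0.23 and 0.36 in Sural-SNI and 1.02, 0.69, 1.05 and −0.05 in Tibial-SNI, in the same order. The L4-DRG pair of replicate 2 was again the one in which Sural-SNI was higher. Tibial-SNI exceeded Sural-SNI by 0.87 (SE 0.35, 95% interval 0.08 to 1.66), a 1.83-fold higher level.

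MiR-126-3p had log2(fold change) of −0.07, −0.53, −0.20 and 0.11 in Sural-SNI and 0.39, −0.06, 0.49 and 0.16 in Tibial-SNI. In each of the 4 pairs of arrays Tibial-SNI was above Sural-SNI, by 0.06 to 0.70, a direction that 14 of the 154 miRs (9.09%) showed in 4 of 4 pairs and that miR-126-3p alone of the 4 vascular miRs showed. The difference was 0.42 (SE 0.27, 95% interval −0.19 to 1.03). MiR-126-5p had 0.66, −0.10, −0.26 and 0.18 in Sural-SNI and 1.44, 0.45, 0.07 and 0.02 in Tibial-SNI. Its difference of 0.38 (SE 0.39, 95% interval −0.51 to 1.27) was 0.06 without the L3-DRG Tibial-SNI array of replicate 1, the highest of the 8.

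None of the 4 passed the adjusted p in limma (0.983 for miR-143 and 0.995 for the other 3), against 1 of the 154 miRs (0.649%). At an unadjusted limma p below 0.05, miR-143 and miR-145 passed, 2 of 4 against 4 of the 154 miRs (2.6%). At the one-tailed threshold of the methods, 0.09 without adjustment, miR-143, miR-145 and miR-126-3p passed in limma as higher in Tibial-SNI and miR-126-5p did not, that is 3 of 4 against 12 of the 154 miRs (7.79%). With a replicate block (DRG and replicate number), all 4 passed that threshold, against 25 of 154 miRs (16.2%), and none passed the adjusted p (0.776 to 0.784). The exact permutation test over the 70 splits of the arrays gave a two-sided p of 0.0571 for miR-143, miR-145 and miR-126-3p. For miR-126-5p it was 0.429, and 0.0286 is the smallest two-sided p it can give. Its one-sided p was 0.0286 for the first 3, which is not its smallest one-sided value, and 0.214 for miR-126-5p. The splits treated the values as unpaired, although the Sural-SNI and Tibial-SNI arrays of 1 DRG and number share a Sham array. In none of the 4 were the groups apart without overlap, against 1.3% of all miRs. MiR-126-3p missed the one-tailed threshold when any of 9 of the 12 arrays was left out and under 5 of the 15 other settings (MammU6 alone, snoRNA135 alone or the mean of all miRs as reference, the mean of both Sham arrays of the DRG, and 1 fit of the 12 arrays). MiR-145 missed it when any of the 4 Sham arrays was left out and under 3 of the 15 (MammU6 alone, the mean of both Sham arrays, and 1 fit of the 12 arrays). MiR-143 passed with each of the 12 arrays left out in turn and under all 15 settings.

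**Figure D2:**
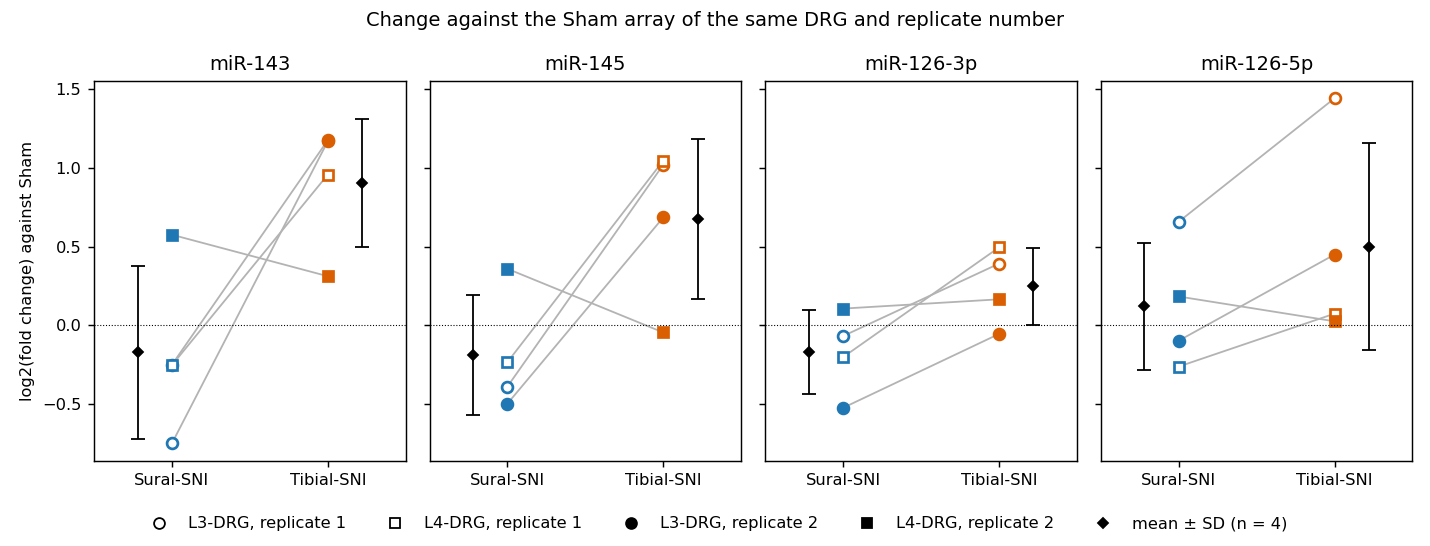
Log2(fold change) of each miR against the Sham array of the same DRG and replicate number, with lines joining the Sural-SNI and Tibial-SNI arrays of 1 DRG and number, and diamonds for mean ± SD (n = 4). Of the 4 lines, 3 rise for miR-143, miR-145 and miR-126-5p, and 4 rise for miR-126-3p.

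Taken by replicate number, the mean difference of Tibial-SNI and Sural-SNI was larger in replicate 1 than in replicate 2 for all 4 miRs. It was 1.57 and 0.58 for miR-143, 1.35 and 0.39 for miR-145, 0.58 and 0.26 for miR-126-3p, and 0.56 and 0.19 for miR-126-5p (2 pairs of arrays each, replicate 1 first). Its sign was the same within both numbers. By ganglion, the difference was 1.67 in L3-DRG and 0.47 in L4-DRG for miR-143, 1.30 and 0.44 for miR-145, 0.47 and 0.38 for miR-126-3p, and 0.67 and 0.09 for miR-126-5p. L3-DRG holds the neurons of the saphenous nerve, which was not cut, and L4-DRG those of the sciatic nerve. The difference between the ganglia, L4-DRG minus L3-DRG, was −1.20 (SE 0.62) for miR-143, −0.86 (SE 0.66) for miR-145, −0.58 (SE 0.67) for miR-126-5p and −0.09 (SE 0.52) for miR-126-3p, and none passed the limma interaction test (adjusted p = 0.989 for each, and 0 of 154 miRs at an adjusted or an unadjusted p below 0.05). With 2 arrays per group and ganglion the intervals were wide, from −2.72 to 0.31 for miR-143.

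Against Sham, miR-143 was 0.90 higher in Tibial-SNI (SE 0.43, 95% interval −0.06 to 1.87) and miR-145 was 0.68 higher (SE 0.85, 95% interval −1.21 to 2.56). MiR-126-3p was 0.25 higher (SE 0.32) and miR-126-5p 0.50 higher (SE 1.62). With a replicate block for the DRG and its number, the SE of miR-126-5p was 0.26. In Sural-SNI the means differed from Sham by −0.17 for miR-143, −0.19 for miR-145, −0.17 for miR-126-3p and 0.12 for miR-126-5p, with intervals that hold 0. None of the 4 passed the adjusted p in limma against Sham in either SNI group (0.997 or higher, with 0 of 154 miRs called), and none had an unadjusted p below 0.05, against 0 of 154 in Sural-SNI and 1 of 154 (0.649%) in Tibial-SNI. With the replicate block, miR-143 in Tibial-SNI had an unadjusted limma p below 0.05 (adjusted p = 0.410), as the only one of the 4, where 15 of 154 miRs (9.74%) were below 0.05. MiR-143 was also 1 of the 2 miRs (1.3%) whose Tibial-SNI and Sham arrays did not overlap in −ΔCt. That count keeps the shift between the replicate numbers. Replicate 1 lay wholly below replicate 2 in 29.2% of all miRs and wholly above it in 10.4%. As each group holds both numbers, such miRs cannot part by group. MiR-143 and miR-126-5p were above the matched Sham on 4 of 4 Tibial-SNI arrays, as were 28 of 154 miRs (18.2%). Both SNI groups are set against the same Sham arrays.

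The level of the 4 miRs did not pass a test between the ganglia. L4-DRG minus L3-DRG was −0.05 (SE 0.35) for miR-143, −0.19 (SE 0.69) for miR-145, −0.06 (SE 0.26) for miR-126-3p and 0.21 (SE 1.32) for miR-126-5p over the 12 arrays (adjusted p = 0.987 in limma for each, with 0 of 154 miRs called and 3 of 154, 1.95%, at an unadjusted p below 0.05, none of them vascular). With the replicate number as a block the 95% intervals were −0.65 to 0.54, −0.72 to 0.34, −0.40 to 0.27 and −0.27 to 0.69.

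Other miRs of vessel walls were set beside the 4. Of 6 further miRs of vascular smooth muscle, 4 were in the table (miR-133a, miR-199a-3p, miR-214 and miR-222). All 4 had a higher mean in Tibial-SNI than in Sural-SNI, as did 93 of all 154 miRs. Their median difference was 0.35, against 0.10 over all 154. None passed the adjusted p, and 1 passed the one-tailed threshold as higher, against 12 of 154 miRs (7.79%). It was miR-133a (difference 1.04, SE 0.68), which is also a miR of striated muscle. MiR-214, a miR of fibroblasts and smooth muscle, was higher in 4 of 4 pairs (0.44, SE 0.33), as were 14 of 154 miRs (9.09%). Of 9 further miRs of endothelium, all in the table, 3 had a higher and 6 a lower mean in Tibial-SNI, against 93 and 61 of all 154 miRs. Their median difference was −0.04. The 1 that passed the one-tailed threshold, miR-130a, did so as lower (−1.04, SE 0.49), as did 4 of 154 miRs. MiR-130a is among the miRs the study picked. The paper reports that qPCR did not bear out its difference on the arrays, also with the same RNA samples. Its Ct on the arrays ranged from 29.2 to 37.9, so it was read late on at least some of them. The other endothelial miRs are also made by many other cell types.

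Skeletal muscle miRs had their higher mean in the same group as the smooth muscle pair. All 4 assays of that list (miR-133b, miR-133a, and miR-1 read by a rat and by a mouse assay) were higher in the mean of Tibial-SNI than of Sural-SNI. Of all 154 miRs 93 were so, and miR-206 was not analysed here. The 4 muscle assays had a median difference of 1.23. None passed the adjusted p, and 3 of 4 passed the one-tailed threshold as higher, against 12 of 154 miRs (7.79%). The largest difference was that of miR-133b (1.61, SE 0.56), which the study also picked. The summed level of the list (log2 of the summed 2 to the power of −ΔCt) was 0.59 to 1.73 in Sham, −0.17 to 1.35 in Sural-SNI and 0.01 to 4.41 in Tibial-SNI. The value of 4.41 came from the L4-DRG array of replicate 1, and the next Tibial-SNI array was at 2.19. On that array the log2(fold change) of miR-145 (1.05) and of miR-126-3p (0.49) was the highest of the 8 SNI arrays, and the −ΔCt of miR-126-3p (3.77) was the highest of the 12. MiR-143 (0.96) was lower there than on both L3-DRG Tibial-SNI arrays, and miR-126-5p (0.07) was the fifth of the 8. Without the L4-DRG Tibial-SNI array of replicate 1, Tibial-SNI exceeded Sural-SNI by 1.06 for miR-143, 0.74 for miR-145, 0.34 for miR-126-3p and 0.52 for miR-126-5p. The muscle level also moved with the replicate number and was lower in replicate 2 than in replicate 1 for each group and DRG. Within replicate 1, the −ΔCt of miR-143 and miR-145 was highest on the L3-DRG Tibial-SNI array, which had the second highest muscle level (2.19). Within replicate 2, where the muscle level was −0.17 to 0.69, both were highest on the L3-DRG Tibial-SNI array, with a muscle level of 0.01. Over the 12 arrays, with the mean of each replicate number subtracted, the 4 muscle assays had a Pearson r of 0.34 to 0.62 with miR-143. With miR-145 it was 0.45 to 0.68, and the medians over all other miRs were 0.20 for miR-143 and 0.21 for miR-145.

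Blood cells were read through few assays. Of 3 miRs of red blood cells only miR-486 was in the table (miR-451 and miR-144 were not analysed here), with −ΔCt of −2.77 to −2.001 in Sham, −3.20 to −0.69 in Sural-SNI and −3.32 to −0.71 in Tibial-SNI. Its difference between the SNI groups was −0.14 (SE 0.57). Of 6 leukocyte miRs 5 were in the table, 3 with a higher and 2 with a lower mean in Tibial-SNI (93 and 61 of all 154 miRs). None passed either threshold, and the median difference was 0.09. The summed level of the leukocyte miRs was 1.70 to 2.14 in Sham, 2.03 to 2.36 in Sural-SNI and 1.85 to 2.48 in Tibial-SNI. MiR-182 and miR-183 of sensory neurons had a median difference of 0.06, and miR-338-3p of glia a difference of −1.02 (SE 0.72), which missed the one-tailed threshold. The −ΔCt of miR-338-3p was −10.26 on the L4-DRG Tibial-SNI array of replicate 1, the array with the highest muscle level. On the other arrays it was −7.57 to −2.97. The part of other cell types in the values of the vascular miRs was not tested.

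How far the 4 miRs move together was described over the 12 arrays, after the mean of the arrays of the same replicate number had been subtracted from −ΔCt. The arrays share the 3 reference assays and the group differences given above, and the values are a description with no test. MiR-143 and miR-145 had a Pearson r of 0.95 (Spearman rho 0.88), and each was the nearest of 153 other miRs to the other, with medians over those of 0.20 and 0.21. The r was 0.98 within replicate 1 and 0.89 within replicate 2 (6 arrays each), 0.89 without the 2 arrays farthest from the median of miR-143 (both of L3-DRG Tibial-SNI), and 0.94 with the mean Ct of the 154 miRs as reference.

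MiR-126-3p had a higher r with the smooth muscle pair than with its own other arm on this scale, and the order turned in raw Ct. Its r was 0.88 with miR-145 (rho 0.90), its nearest miR, and 0.77 with miR-143 (rho 0.79), at rank 3. With miR-126-5p it was 0.48 (rho 0.54), at rank 22 of 153, and 0.18 without the 2 arrays farthest from the median of miR-126-3p. Relative to the mean Ct of the 154 miRs these were 0.72, 0.58 and 0.27, and miR-199a-3p then came first. In raw Ct, without a reference, r was 0.75 with miR-145 (rank 71 of 153), 0.64 with miR-143 (rank 107) and 0.90 with miR-126-5p (rank 6). The median r of miR-126-3p with all other miRs was 0.72 in raw Ct, so the smooth muscle pair did not stand out among the miRs like miR-126-3p. Seen from miR-145, miR-126-3p ranked 5 of 153 in raw Ct (median r 0.45), and seen from miR-143 it ranked 13 (median r 0.40). Before the number means were subtracted, r was −0.47 with miR-145, 0.05 with miR-143 and −0.72 with miR-126-5p, values that carry the shift between the numbers. MiR-126-5p had r of 0.52 with miR-143 and 0.53 with miR-145, and single arrays and the number moved these values in both directions. They were 0.43 and 0.44 within replicate 1, 0.96 and 0.96 within replicate 2, and 0.69 and 0.71 with the mean of each DRG and number subtracted. Without the 2 farthest arrays they were 0.20 and 0.22, without the L3-DRG Tibial-SNI array of replicate 1 alone 0.33 and 0.35, and without the L3-DRG Sham array of replicate 1 alone 0.90 and 0.84.

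The 3 miRs most like each vascular miR on this measure were as follows. For miR-143 they were miR-145, miR-425 (r = 0.89) and miR-214 (0.79), and for miR-145 they were miR-143, miR-126-3p and miR-425 (0.82). For miR-126-3p they were miR-145, miR-196b (0.81) and miR-143. For miR-126-5p they were let-7d (0.95), miR-196c (0.86) and miR-28 (0.82), none of which is a vascular miR of these lists. The median r of the 9 other endothelial miRs with miR-126-3p was −0.09, against 0.10 over all other miRs. That of the 4 other smooth muscle miRs was 0.60 and that of the 4 muscle assays 0.63, and miR-133a is in both lists. For miR-126-5p the medians were 0.32, 0.38 and 0.31 in the same order, against 0.27 over all other miRs. They were −0.02, 0.54 and 0.37 for miR-143, and −0.14, 0.56 and 0.50 for miR-145.

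**Figure D3:**
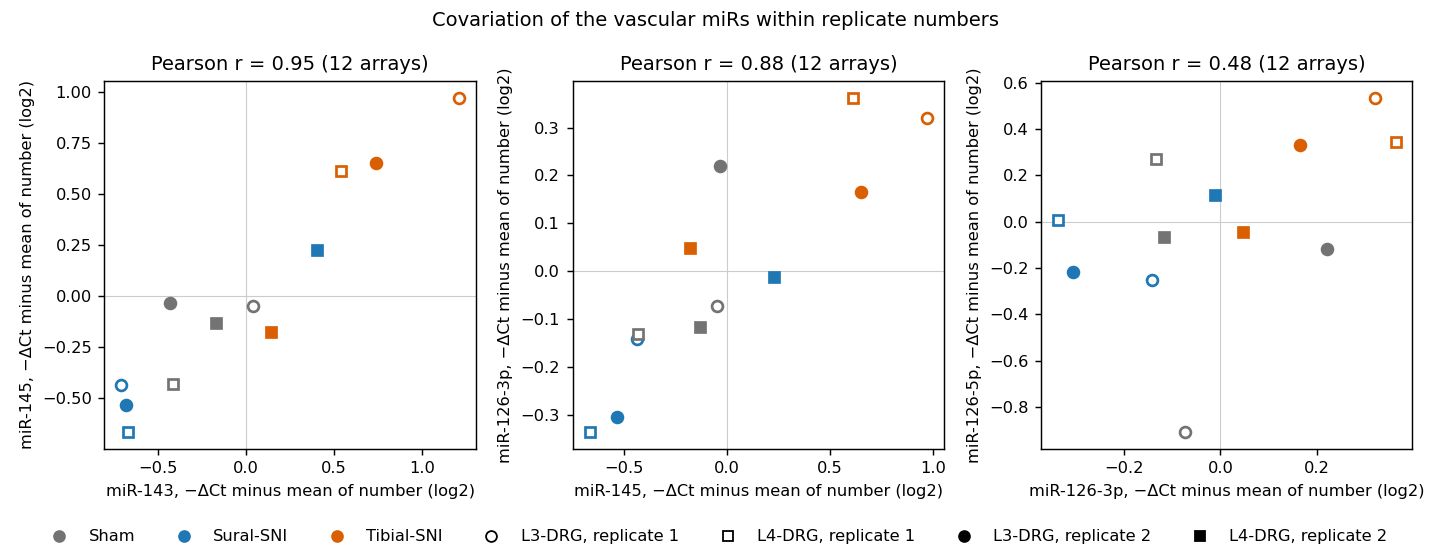
Values of −ΔCt after subtraction of the mean of the same replicate number (log2 units), one point per array, for 3 pairs of miRs. The arrays of miR-143 and miR-145 lie near a line (r = 0.95), those of miR-145 and miR-126-3p less so (0.88), and the arms of miR-126 scatter (0.48).

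The Ct difference between assays of 1 array needs no reference assay. The Ct of miR-143 minus that of miR-145 was 1.396 to 1.91 on the 6 arrays of replicate 1 (mean 1.63 ± 0.17, SD) and 2.73 to 3.45 on the 6 of replicate 2 (3.05 ± 0.26). The group means were 2.42 ± 0.99 in Sham, 2.40 ± 0.75 in Sural-SNI and 2.20 ± 0.76 in Tibial-SNI (SD, n = 4), with SDs that hold the shift between the numbers. Within replicate 1 the gap was 1.54 and 1.62 in Sham, 1.64 and 1.91 in Sural-SNI, and 1.396 and 1.71 in Tibial-SNI. Within replicate 2 it was 3.09 and 3.45 in Sham, 2.87 and 3.20 in Sural-SNI, and 2.73 and 2.96 in Tibial-SNI. Sham thus lay below Sural-SNI in replicate 1 and above Tibial-SNI in replicate 2, while the other ranges of the groups within a number overlapped. With 2 arrays per group and number this was not tested. How often groups part in this way over all pairs of miRs was not counted. Over the 12 arrays its SD of 0.77 ranked 3127 among the 11781 pairs of miRs from the smallest. With the mean of each number subtracted, an alternative chosen after seeing the data, the SD was 0.22, at rank 81, against a median of 0.70 over all pairs.

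The arms of miR-126 come from 1 hairpin, so each molecule of precursor holds both. The Ct of miR-126-5p minus that of miR-126-3p was 8.40 to 9.64 on the arrays of replicate 1 (mean 8.81 ± 0.46, SD, n = 6) and 3.92 to 4.42 on those of replicate 2 (4.08 ± 0.19). The gap between the arms was thus larger on each array of replicate 1 than on any of replicate 2, in all 3 groups. By group it was 6.63 ± 2.82 in Sham, 6.33 ± 2.73 in Sural-SNI and 6.38 ± 2.69 in Tibial-SNI (SD, n = 4), again with SDs that hold the shift. Within replicate 2 the gap was 4.04 and 4.42 in Sham, above the 3.96 and 3.995 of Sural-SNI, while the other ranges of the groups within a number overlapped. Its SD of 2.49 ranked 11115 among the 11781 pairs, and with the number means subtracted it was 0.35, at rank 886. The mean Ct of the arms minus the mean of miR-143 and miR-145 was −2.10 ± 0.55 in Sham, −2.26 ± 0.26 in Sural-SNI and −1.69 ± 0.47 in Tibial-SNI (SD, n = 4). These groups overlapped over all arrays, while within replicate 1 the Tibial-SNI arrays (−1.56 and −1.12) lay above those of Sural-SNI (−2.29 and −2.17). Differences within a number rest on 2 arrays per group and were not tested, and how often groups part so over other miRs was not counted.

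The gap lay mostly on the side of miR-126-5p. Its mean Ct was 5.70 cycles higher in replicate 1 than in replicate 2, the fourth largest shift of the 154 miRs, whose median was 2.05. The shift was 3.59 for miR-145 (rank 27), 2.17 for miR-143 (rank 70) and 0.98 for miR-126-3p (rank 122), while MammU6 shifted by −0.86, snoRNA135 by 3.94 and U87 by 1.52. In −ΔCt, replicate 1 lay below replicate 2 without overlap in miR-145 and miR-126-5p, as in 29.2% of all miRs, and above it without overlap in miR-126-3p, as in 10.4%. The arms of 1 hairpin thus differed between the numbers in opposite directions on the −ΔCt scale of the 3 averaged references. In raw Ct both arms were higher in replicate 1, and the references themselves did not shift in the same direction. Whether rats, days or runs differed between the numbers cannot be told apart.

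**Figure D4:**
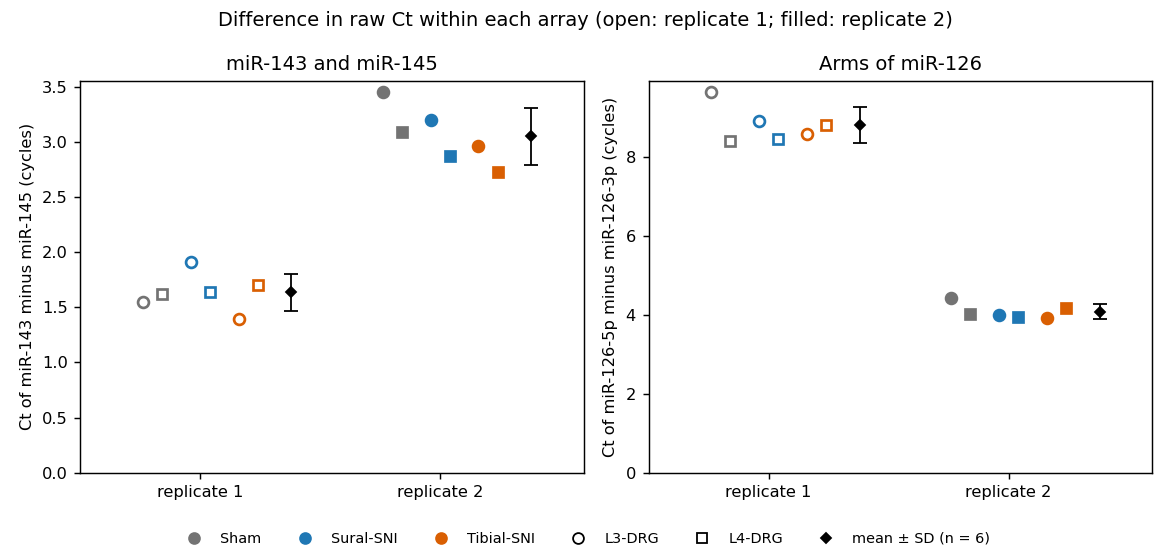
Difference in raw Ct (cycles) between miR-143 and miR-145 and between the arms of miR-126 on each array, by replicate number, with diamonds for mean ± SD (n = 6). Both gaps part by number without overlap.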

How the data were processed

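The Ct values of TaqMan rodent microRNA cards on 12 rat DRG were used, in log2 units (cycles) and without normalization, as deposited by the authors. The cards were run for 40 cycles with no Ct limit, and the authors kept only miRs detected on all 12 arrays. The table holds 160 wells, 154 of miRs. The deposited fold changes, the authors' own comparison, were not used. Ct values hold no counts, so the number of arrays sets the precision.

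The 4 wells of MammU6 were averaged, and −ΔCt was the mean Ct of MammU6, snoRNA135 and U87 minus that of the miR. Groups, DRG and replicate numbers came from the labels. Tests used limma 3.58.1 (R 4.3.3; lmFit, eBayes) over all 154 miRs with Benjamini-Hochberg adjustment and a call at adjusted p below 0.05. The SNI groups were compared on 8 unpaired log2(fold change) values, and Sham and DRG comparisons used all 12 arrays, with DRG and group as terms. The fits were tested on simulated data. Other references, Ct limits, spreads and left-out arrays were tried.

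Numbers were taken to pair the arrays. Deviations from group means had r from 0.46 to 0.81 between arrays of the same DRG and number (12 pairs). Between arrays of different number r was −0.79 to −0.51 (24 pairs). Each group holds both numbers, so the shift between the numbers gives these signs by itself. They do not show that arrays of 1 number share a rat or a run. No 2 arrays shared the Ct of more than 1 assay. The members, the lists and the rule for named miRs (the 4 miRs, the reference assays, the 3 most like miRs each, and listed miRs in the table with the smallest p of each list) were chosen with earlier results of these data known.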

Additional observations from a re-analysis of the deposited data

How the results depend on the processing

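Tibial-SNI minus Sural-SNI kept its sign in all 4 miRs under every alternative and with any 1 array left out, and none reached an adjusted p below 0.05 (smallest 0.372). The count of miRs called at that level fell from 1 to 0 with MammU6, snoRNA135 or U87 alone, snoRNA135 with U87, or all miRs averaged as reference, with a Ct of at most 35 or 32, the mean of both Sham arrays, 1 fit of 12 arrays, the exact permutation test, the replicate block, and any 1 array left out (0 to 0). At the one-tailed threshold 16 miRs passed in either direction, and 9 with MammU6, 5 with the mean of both Sham arrays, 9 in 1 fit of 12 arrays, 34 with the replicate block and 5 to 27 with an array left out. The methods' t-test gave 17 at that threshold, miR-143, miR-145 and miR-126-3p among them, and 1 after Benjamini-Hochberg adjustment, none of the 4. MiR-126-5p was not tested at a Ct of at most 32. With other references, some values near 0 changed sign. L4-DRG minus L3-DRG became 0.13 for miR-143 and 0.12 for miR-126-3p with MammU6, the interaction of miR-126-3p became 0.0615 with snoRNA135, 0.036 with U87, 0.0488 with both and 0.0137 with all miRs averaged, and Sural-SNI minus Sham of miR-126-5p became −0.0348 with all miRs averaged. With an array left out, which leaves the replicate numbers unbalanced between groups, L4-DRG minus L3-DRG ranged from −0.35 to 0.0823 for miR-143, −0.62 to 0.12 for miR-145, −0.17 to 0.044 for miR-126-3p and −0.46 to 0.78 for miR-126-5p. Sural-SNI minus Sham ranged from −0.61 to 0.0705 for miR-143, −0.83 to 0.28 for miR-145 and −0.89 to 0.97 for miR-126-5p, Tibial-SNI minus Sham from −0.51 to 1.35 for miR-126-5p, and the interaction of miR-126-3p from −0.32 to 0.14. Pearson r with nothing subtracted was 0.79 for miR-143 and miR-145, 0.0503 for miR-143 and miR-126-3p, −0.47 for miR-145 and miR-126-3p, 0.93 for miR-145 and miR-126-5p, and −0.72 for the miR-126 arms. With all miRs averaged it was 0.58 for miR-143 and miR-126-3p and 0.72 for miR-145 and miR-126-3p, and in raw Ct 0.75 for the latter and 0.90 for the arms. With an array left out, r ranged from 0.92 to 0.97 for miR-143 and miR-145, 0.70 to 0.92 for miR-143 and miR-126-3p, 0.85 to 0.94 for miR-145 and miR-126-3p, 0.33 to 0.90 for miR-143 and miR-126-5p, 0.35 to 0.84 for miR-145 and miR-126-5p, and 0.34 to 0.67 for the arms. The SD of the Ct difference, 0.77 for miR-143 and miR-145, 2.49 for the arms and 0.47 between the pairs, was 0.72 to 0.79, 2.39 to 2.53 and 0.40 to 0.50 with an array left out. With number means subtracted it was 0.22 for miR-143 and miR-145 and 0.35 for the arms. The cause of these changes was not tested.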
